A study of Rattus norvegicus with 40 samples.

Results

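Fbxo32 and Trim63, the 2 ubiquitin ligase genes most often read as markers of muscle wasting, were followed in 2 skeletal muscles of ageing rats. The genes were taken by their Ensembl identifiers, ENSRNOG00000006738 for Fbxo32 and ENSRNOG00000016543 for Trim63, and are 2 of the 32545 genes in the count table. Both were detected in every library and passed the filter on low counts in every comparison. The animals were 20 male Wistar rats, an outbred laboratory strain, of which 10 were 20 months old and 10 others were 22 months old. Each animal gave 1 RNA sequencing library from the gastrocnemius of the calf (hind limb) and 1 from the triceps (fore limb), so that there were 40 libraries in 4 groups of 10. The labels name no treatment and no engineered allele. The study describes 20 months as the early sarcopenic and 22 months as the sarcopenic phase in these rats. It does so for its gastrocnemius data and places the muscle loss of this strain in the hind limbs. The phases were therefore not established for triceps. Younger animals were not analysed here, so levels were not set against adult muscle.

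Fbxo32 encodes atrogin-1, also called MAFbx, the subunit of an SCF ubiquitin ligase that binds its substrates. Trim63 encodes MuRF1, a RING-type ubiquitin ligase that sits at the sarcomere and marks contractile proteins for the proteasome. Both are expressed mainly in striated muscle, and their transcripts are known to rise when a muscle is denervated, unloaded, starved or exposed to glucocorticoids. FoxO transcription factors activate both genes, and signalling from insulin and IGF1 through Akt holds them down.

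The promoter of Trim63 is shown because it is known to carry a hormone receptor element beside a forkhead element, and the sequence shows how close they lie. The stretch covers the 223 bases before the gene start on the plus strand of the RefSeq build GRCr8, at chr5:151816986-151817208, whereas the counts were made on Rnor_6.0. RefSeq gave a promoter for 1 of the 2 genes, matched by symbol. Capitals mark both matches, which follow each other without a gap.

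Trim63 promoter: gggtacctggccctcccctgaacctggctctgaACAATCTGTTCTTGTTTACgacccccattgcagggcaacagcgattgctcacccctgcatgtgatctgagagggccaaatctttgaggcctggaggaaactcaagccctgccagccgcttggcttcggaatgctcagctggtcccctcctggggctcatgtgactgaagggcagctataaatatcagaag

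The first 12 capitals, bases 34 to 45, match ACA and TGTTCT spaced by 3 bases of any kind, part of the element bound by the glucocorticoid receptor and its relatives. Of 33469 RefSeq promoters searched on both strands over the same stretch, 0.275% held it. Bases 46 to 52 match the forkhead motif GTAAACA on the minus strand, which reads TGTTTAC as shown, and 2.90% of promoters held that motif. The TATA box letters TATAAA lie at bases 209 to 214 and were found in 11.4% of promoters. A match describes letters in the sequence, and binding was not measured here.

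The level of Fbxo32 in gastrocnemius exceeded that in triceps in 8 of 10 animals at 20 months and in 10 of 10 at 22 months. Over all genes tested, 15.7% were higher in gastrocnemius in at least 8 of 10 animals at 20 months and 7.02% in all 10 at 22 months. Levels are given as CPM, read counts relative to the size of each library (CPM as edgeR defines it), after TMM scaling (trimmed mean of M values) between libraries. They are not divided by transcript length, so the level of Fbxo32 was not compared with that of Trim63. In gastrocnemius at 20 months Fbxo32 ranged from 112 CPM in replicate 7 to 257 CPM in replicate 3, with a median of 205 CPM and a mean of 188 ± 52.9 CPM (SD, n = 10). At 22 months it ranged from 163 CPM in replicate 4 to 286 CPM in replicate 7, with a median of 207 CPM and a mean of 219 ± 45.1 CPM (SD, n = 10). The median hardly moved between ages, while both ends of the range were higher at 22 months. The lowest value of 22 months lay above the 4 lowest animals of 20 months, and 3 animals of 22 months lay above the highest of 20 months.

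In triceps Fbxo32 was lower than in gastrocnemius by mean and median at both ages. At 20 months it ranged from 69.1 CPM in replicate 4 to 196 CPM in replicate 3, with a median of 133 CPM and a mean of 126 ± 39.6 CPM (SD, n = 10). At 22 months it ranged from 90.3 CPM in replicate 9 to 159 CPM in replicate 5, with a median of 117 CPM and a mean of 123 ± 25.7 CPM (SD, n = 10). Of the 20-month animals 3 lay below the range of 22 months and 1 lay above it. With TMM scaling, replicate 3 of 20 months thus held the highest Fbxo32 of its age in both muscles. With library totals the highest triceps value was that of replicate 7, at 169 CPM against 168 CPM in replicate 3. In bulk tissue, fewer fibres and less transcript per fibre cannot be told apart.

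Trim63 followed the same order of muscles, with gastrocnemius the higher muscle of 9 animals out of 10 at 20 months and of 10 out of 10 at 22 months. At least 9 animals of 20 months were higher in gastrocnemius for 7.89% of genes. In gastrocnemius at 20 months it ranged from 273 CPM in replicate 1 to 678 CPM in replicate 3, with a median of 421 CPM and a mean of 440 ± 153 CPM (SD, n = 10). At 22 months it ranged from 337 CPM in replicate 4 to 665 CPM in replicate 6, with a median of 439 CPM and a mean of 452 ± 89.6 CPM (SD, n = 10). With TMM scaling, replicate 4 of 22 months therefore held the lowest gastrocnemius value of both ligases at that age. With library totals the lowest Trim63 was that of replicate 8, at 399 CPM, and replicate 4 was at 427 CPM.

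In triceps Trim63 ranged from 214 CPM in replicate 6 to 344 CPM in replicate 2 at 20 months, with a median of 282 CPM and a mean of 279 ± 42.2 CPM (SD, n = 10). At 22 months it ranged from 224 CPM in replicate 7 to 419 CPM in replicate 1, with a median of 267 CPM and a mean of 282 ± 56.4 CPM (SD, n = 10). Replicate 1 of 22 months stood apart, since the next library of the group was at 320 CPM.

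**Figure D1:**
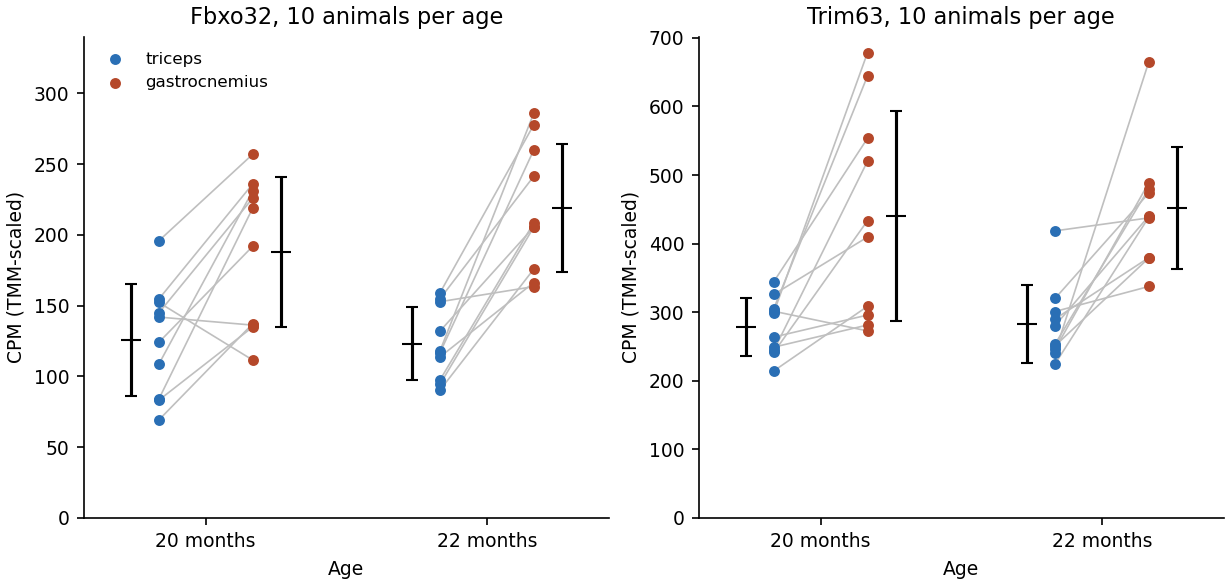
TMM-scaled CPM of Fbxo32 (left) and Trim63 (right) in triceps and gastrocnemius of 10 animals at each age, with grey lines joining both muscles of an animal and black bars giving the mean ± SD. At 22 months every line rises from triceps to gastrocnemius, whereas at 20 months 2 lines fall for Fbxo32 and 1 falls for Trim63.

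To ask whether the hind limb and the fore limb muscle differed in these genes, gastrocnemius was compared with triceps at each age over all genes. The fits held no term for the animal, and those with the animal as a block are given further below. At 22 months both ligases were higher in gastrocnemius. Fbxo32 differed by 0.84 ± 0.13 (SE) on the log2 scale, a fold of 1.79 with a 95% interval of 1.49 to 2.15 and an adjusted p of 3.17e-05 by the edgeR quasi-likelihood test. Trim63 differed by 0.69 ± 0.12 (SE), a fold of 1.61 with a 95% interval of 1.36 to 1.91 and an adjusted p of 0.000146 by edgeR. Such differences were common in the transcriptome, as 20.3% of 12565 genes were called at an adjusted p under 0.01 and 10.5% were called higher in gastrocnemius (25.4% and 12.5% by DESeq2).

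Fbxo32 separated the muscles fully at 22 months, where its lowest gastrocnemius library, at 163 CPM, lay above its highest triceps library, at 159 CPM. Of the 12565 genes, 2.3% were separated in this direction with TMM scaling. The gap was narrow with TMM scaling and wider with library totals, where the corresponding values were 207 and 158 CPM. Trim63 overlapped, with 7 of 10 gastrocnemius libraries above the highest triceps library and 9 of 10 triceps libraries below the lowest gastrocnemius library. With library totals Trim63 was separated fully as well, at 399 CPM in the lowest gastrocnemius and 379 CPM in the highest triceps library. The share of all genes separated with library totals was not counted. That scaling moved genes in general towards gastrocnemius, with a median log2 difference of 0.19 in place of 0.0062.

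Within animals at 22 months, the log2 difference of Fbxo32 between the muscles ranged from 0.098 in replicate 4 to 1.28 in replicate 7, with a mean of 0.83 ± 0.36 (SD, n = 10). For Trim63 it ranged from 0.064 in replicate 1 to 1.46 in replicate 6, with a mean of 0.68 ± 0.42 (SD, n = 10). The animals that showed the smallest and the largest difference were therefore not the same for both ligases.

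At 20 months the differences between muscles were of similar size, but neither gene was called. Fbxo32 differed by 0.58 ± 0.19 (SE) on the log2 scale, a fold of 1.5 with a 95% interval of 1.14 to 1.97 and an adjusted p of 0.0523 by edgeR. Trim63 differed by 0.67 ± 0.16 (SE), a fold of 1.59 with a 95% interval of 1.26 to 2.01 and an adjusted p of 0.0121 by edgeR, just over the threshold of 0.01. The background at this age was lower, with 3.76% of 12426 genes called and 2.39% called higher in gastrocnemius (7.07% and 3.89% by DESeq2). Trim63 crossed the threshold in the DESeq2 Wald test (adjusted p = 0.00152), with library totals in edgeR (adjusted p = 0.00693) and in the edgeR fit on all 40 libraries (adjusted p = 0.00206), and Fbxo32 crossed it in none of the 8 alternatives, whose adjusted p ran from 0.0168 to 0.0704.

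The single animals show where the 20-month group was mixed. Fbxo32 was lower in gastrocnemius than in triceps in replicates 6 and 7, and the log2 difference ran from -0.45 in replicate 7 to 1.38 in replicate 9, with a mean of 0.59 ± 0.54 (SD, n = 10). Trim63 was lower in gastrocnemius in replicate 1 alone, and its difference ran from -0.14 in that animal to 1.18 in replicate 3, with a mean of 0.59 ± 0.46 (SD, n = 10). Without replicate 1 the adjusted p of Trim63 was 0.00671, and without replicate 7 it was 0.00939, both by edgeR. Leaving out any of the other 8 animals gave no call, with an edgeR adjusted p from 0.0166 (replicate 6) to 0.0412 (replicate 3). Over all genes, 525 of 12360 were called without replicate 1 and 472 of 12281 without replicate 7.

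**Figure D2:**
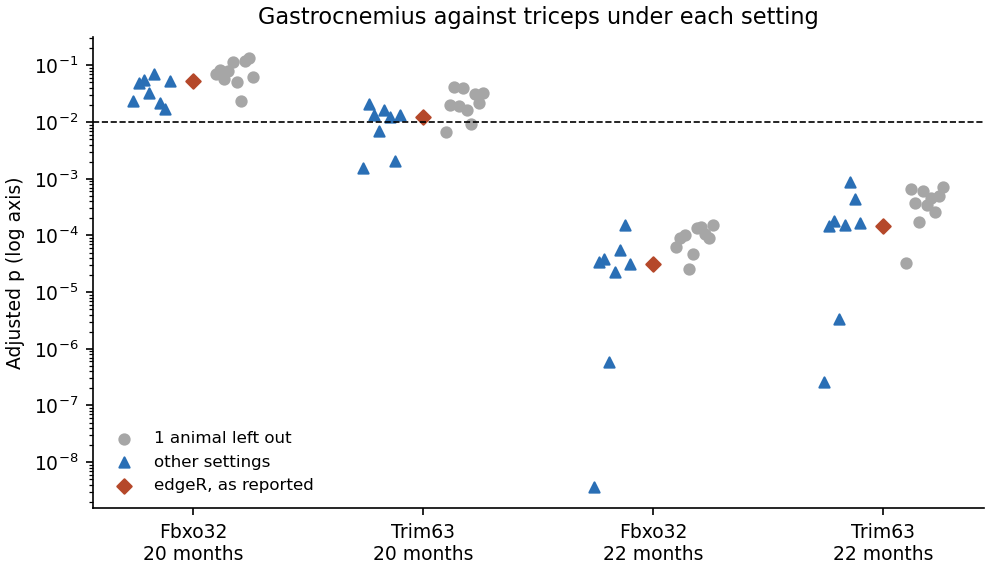
Adjusted p (log axis) of the difference between gastrocnemius and triceps for each gene and age, with the edgeR value as reported (diamonds), 8 other settings (triangles) and 10 fits that each leave out 1 animal (circles), and the threshold of 0.01 as a dashed line. All points of both genes lie below the line at 22 months, those of Fbxo32 lie above it at 20 months, and those of Trim63 at 20 months fall on both sides.

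Depth moved with muscle. At 22 months gastrocnemius libraries had a median of 26775962 total counts (15175847 to 47807240) and triceps libraries one of 16966394 (12108635 to 38864093), while at 20 months the medians were 24251735 (11569197 to 30710227) and 19016187 (10983887 to 68580194). After random thinning of all libraries down to 10983887 counts, the log2 difference at 22 months was 0.83 for Fbxo32 and 0.68 for Trim63, with adjusted p-values of 3.20e-05 and 0.000164 by edgeR. Composition moved with muscle too, since library totals in place of TMM shifted the median of all genes by 0.19 at 22 months and split the calls into 2823 higher and 636 lower in place of 1318 and 1234. At 20 months the shift was 0.10 and the split 323 to 102 in place of 297 to 170. With library totals the log2 difference at 22 months was 1.0 for Fbxo32 and 0.87 for Trim63. Fbxo32 had 853 to 10558 reads per library and Trim63 had 2505 to 22756, so that counting error, at most 3.42%, was small beside the spread between animals.

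To ask whether the ligases changed between 20 and 22 months, ages were compared within each muscle. Neither gene was called in either muscle. In gastrocnemius Fbxo32 differed between 22 and 20 months by 0.23 ± 0.15 (SE) on the log2 scale, a fold of 1.17 with a 95% interval of 0.944 to 1.46 and an adjusted p of 0.573 by edgeR. Trim63 differed by 0.048 ± 0.17 (SE), a fold of 1.03 with a 95% interval of 0.809 to 1.32 and an adjusted p of 0.923 by edgeR. For each gene the median of 20 months was exceeded by 7 of the 10 older animals. For Fbxo32 replicates 3 and 8 did so only narrowly, at 205.476 and 205.443 CPM against 205.232 CPM. Of the 10 younger animals, 5 lay below the median of 22 months for Fbxo32 and 6 for Trim63. The intervals thus held rises of up to 1.46-fold for Fbxo32 and up to 1.32-fold for Trim63.

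In triceps Fbxo32 differed by -0.032 ± 0.17 (SE) between 22 and 20 months, a fold of 0.978 with a 95% interval of 0.772 to 1.24 and an adjusted p of 0.974 by edgeR. Trim63 differed by 0.024 ± 0.11 (SE), a fold of 1.02 with a 95% interval of 0.873 to 1.18 and an adjusted p of 0.97 by edgeR. Of the 10 older animals, 3 exceeded the median of 20 months for Fbxo32 and 4 did for Trim63. The sign of the change of Fbxo32 turned to 0.012 with limma-voom and to 0.010 with library totals, so no direction can be given.

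These ages gave almost no calls in any gene. In gastrocnemius 0% of 12659 genes were called by edgeR, with 1307 genes, or 10.3%, at an unadjusted p under 0.05. With library totals, which shifted the median of all genes by 0.13, edgeR again called 0 genes, while an unadjusted p under 0.05 was found for 2369. Fbxo32 then differed by 0.34 ± 0.14 (SE), with an unadjusted p of 0.0214 and an adjusted p of 0.227 by edgeR. DESeq2 called 1 gene (0.0079%, higher at 22 months) and limma-voom called 0. The same comparison in triceps called 0% of 12345 genes by edgeR, with 1084 genes, or 8.78%, at an unadjusted p under 0.05, and neither DESeq2 nor limma-voom called a gene.

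**Figure D3:**
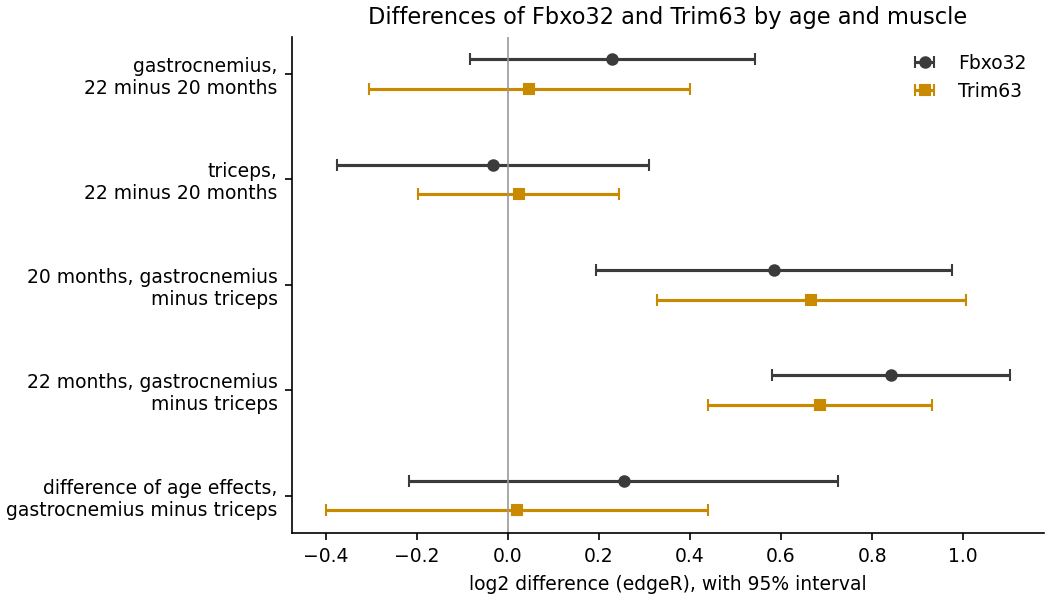
Log2 differences of Fbxo32 (circles) and Trim63 (squares) with 95% intervals from edgeR for age within each muscle, for muscle at each age and for the difference of both age effects. The intervals of both genes lie above 0 for muscle at 20 and at 22 months and include 0 for age and for the difference of the age effects.

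Since the muscle difference was called at 22 months and not at 20 months, the change itself was tested on all 40 libraries. Both muscles of an animal entered this fit as separate libraries, without a term for the animal. The age effect in gastrocnemius exceeded that in triceps by 0.25 ± 0.23 (SE) on the log2 scale for Fbxo32, with a 95% interval of -0.22 to 0.73 and an adjusted p of 0.999 by edgeR. For Trim63 the difference was 0.021 ± 0.21 (SE), with a 95% interval of -0.40 to 0.44 and an adjusted p of 0.999 by edgeR. With the animal as a block the differences were 0.24 ± 0.19 (SE) for Fbxo32 and 0.083 ± 0.19 (SE) for Trim63. Their adjusted p-values were then 0.937 and 0.973 by edgeR. Neither ligase was therefore shown to differ between muscles in its age effect. Over all genes 0% of 12980 were called by edgeR, with 389, or 3%, at an unadjusted p under 0.05, and DESeq2 and limma-voom called 0 as well. The number at an unadjusted p under 0.05 was 680 without replicate 3 of 20 months, 668 without replicate 7 of 22 months and 585 with the animal as a block, with 0 genes called in each.

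Ordered by mean, both triceps groups of Fbxo32 lay below gastrocnemius at 20 months, and gastrocnemius at 22 months was the highest group. The triceps groups had no order of their own, since 20 months was the higher with TMM and the lower with library totals, at 118 against 119 CPM. None of the neighbours in that order with TMM differed past the threshold. Trim63 likewise had both triceps groups below gastrocnemius at 20 months and gastrocnemius at 22 months highest. Its neighbours within a muscle did not differ past the threshold, and triceps at 22 months was not tested against gastrocnemius at 20 months.

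The spread between animals is given as the coefficient of variation (CV), the SD over the mean. In gastrocnemius the CV of Trim63 was 34.8% at 20 months and 19.8% at 22 months, and that of Fbxo32 was 28.2% and 20.6%. In triceps the CV of Fbxo32 was 31.5% at 20 months and 20.9% at 22 months, while that of Trim63 was 15.1% and 20.0%. For Trim63 at 22 months single libraries weighed heavily, as its CV was 11.9% in triceps without replicate 1, below that of 20 months, and 12.2% in gastrocnemius without replicate 6. Over 12980 genes the median CV was 18.6% and 18.1% in gastrocnemius and 18.5% and 17.0% in triceps. In gastrocnemius at 20 months the CV of Trim63 was at percentile 84.2 of all genes and that of Fbxo32 at percentile 74.9, and at 22 months they were at percentiles 56.0 and 58.6. In triceps at 20 months that of Trim63 was at percentile 35.6 and that of Fbxo32 at percentile 81.3, and at 22 months at percentiles 61.2 and 64.1. The difference of a CV between ages was not tested.

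The balance between the ligases was read from the ratio of their counts within a library, into which no scaling between libraries enters. There were 2.40 ± 0.69 Trim63 reads per Fbxo32 read in gastrocnemius at 20 months, with a range from 1.16 in replicate 1 to 3.86 in replicate 10, and 2.10 ± 0.362 at 22 months, with a range from 1.53 to 2.65 (SD, n = 10 each). In triceps the ratio was 2.44 ± 0.894 at 20 months, with a range from 1.51 to 3.89, and 2.35 ± 0.47 at 22 months, with a range from 1.54 to 3.07 (SD, n = 10 each). The groups overlapped throughout, and within each muscle the range was wider at 20 than at 22 months. The ratio was not corrected for transcript length.

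**Figure D4:**
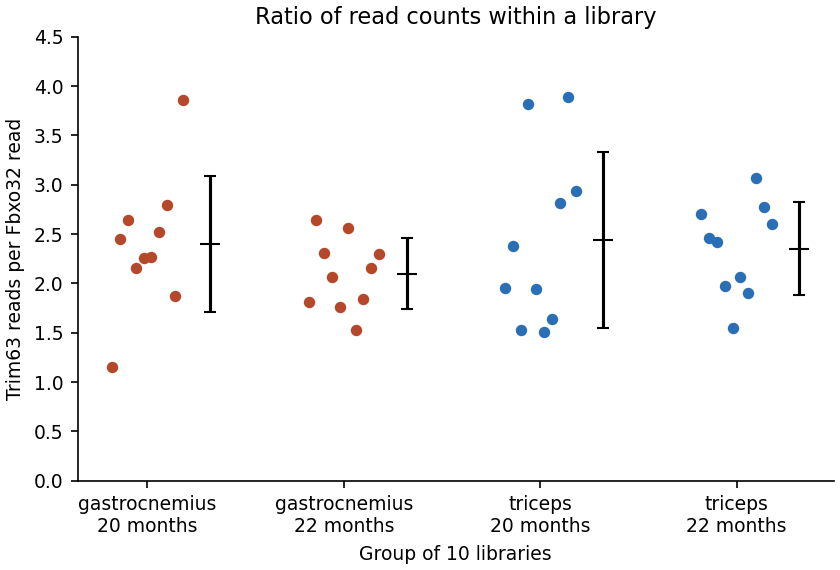
Trim63 reads per Fbxo32 read in each of 10 libraries of the 4 groups, with black bars giving the mean ± SD. The 4 means lie between 2.10 and 2.44, and the range is widest in both groups of 20 months.

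Whether animals with much Fbxo32 also had much Trim63 was asked across the 10 animals of each group on log2 CPM. In gastrocnemius Pearson r was 0.56 among animals of 20 months (permutation p = 0.0947) and 0.603 among those of 22 months (permutation p = 0.0564), with Spearman rho of 0.418 (permutation p = 0.232) and 0.612 (permutation p = 0.0653). In triceps r was 0.0719 among animals of 20 months (permutation p = 0.844) and 0.43 among those of 22 months (permutation p = 0.216), with rho of 0.103 (permutation p = 0.787) and 0.212 (permutation p = 0.559). None passed adjustment over the 12 relations examined, of which the smallest adjusted p was 0.227 for r and 0.261 for rho. With the 2 most extreme Fbxo32 values (by distance from the median) left out, r was 0.635 (permutation p = 0.0954) and 0.746 (permutation p = 0.028) in gastrocnemius and -0.189 (permutation p = 0.653) and 0.399 (permutation p = 0.323) in triceps.

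The scaling bears on these values. With library totals r was 0.591 in gastrocnemius at 20 months, 0.272 in gastrocnemius at 22 months, 0.351 in triceps at 20 months and 0.418 in triceps at 22 months. With TMM scaling the 95% interval of r in gastrocnemius ran from -0.108 to 0.879 at 20 months and from -0.0424 to 0.894 at 22 months.

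**Figure D5:**
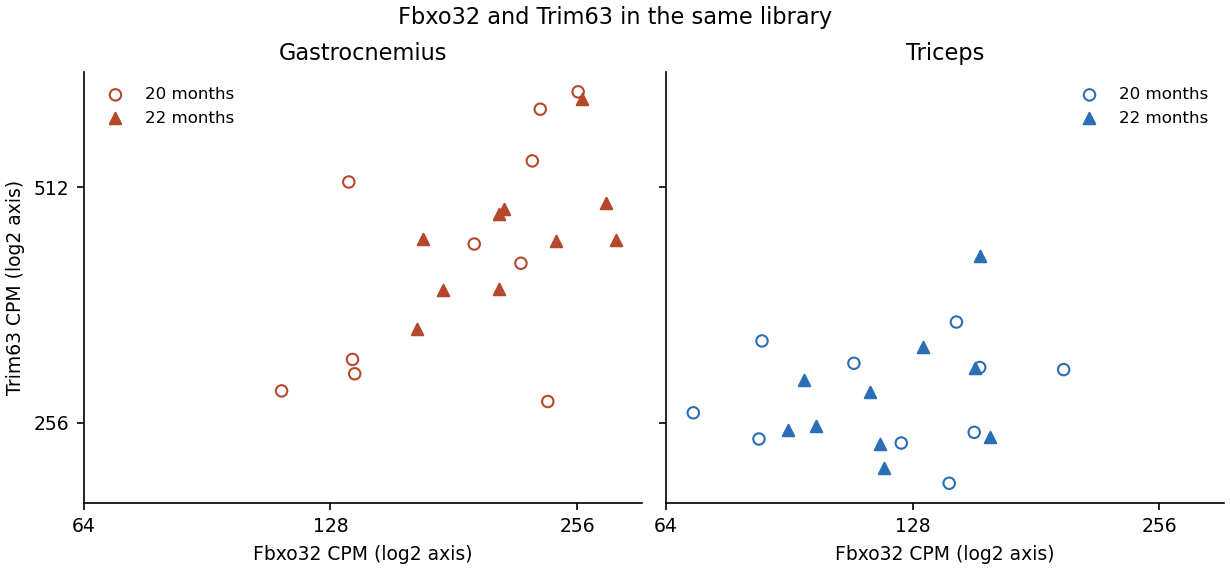
Trim63 against Fbxo32 in the same library (CPM, log2 axes) for gastrocnemius (left) and triceps (right), with open circles for 20 months and triangles for 22 months. Pearson r was 0.56 and 0.603 in gastrocnemius and 0.0719 and 0.43 in triceps at 20 and 22 months, and none passed adjustment.

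Whether an animal with a high level in one muscle also had it in the other was asked for each gene. For Fbxo32 r between the muscles was 0.318 among animals of 20 months (permutation p = 0.36) and 0.282 among those of 22 months (permutation p = 0.42), with rho of 0.442 (permutation p = 0.203) and 0.37 (permutation p = 0.295). For Trim63 it was 0.427 in the younger animals (permutation p = 0.215) and -0.276 in the older ones (permutation p = 0.415), with rho of 0.261 (permutation p = 0.47) and -0.418 (permutation p = 0.234). The adjusted p of r was 0.504 in 3 of these relations and 0.37 for Trim63 at 20 months. With the 2 most extreme gastrocnemius values left out, r of Fbxo32 was 0.484 (permutation p = 0.211) and 0.109 (permutation p = 0.799), and r of Trim63 was 0.556 (permutation p = 0.154) and -0.021 (permutation p = 0.968). With library totals r of Fbxo32 was 0.131 and 0.0642, and r of Trim63 was 0.177 and -0.218. No relation between the muscles of an animal was thus detectable with 10 animals per age.

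Both ligases were also set against the main axis of variation of their muscle, the first principal component (PC1) of its transcriptome, computed without them. PC1 of gastrocnemius was turned so that 22 months had the higher mean. For triceps, PC1 was given the sign at which the weights of the genes matched gastrocnemius best, which left 22 months with the lower mean in triceps. In gastrocnemius r over 20 animals was -0.449 for Fbxo32 (permutation p = 0.0476, adjusted 0.227; rho -0.471, permutation p = 0.0375) and -0.407 for Trim63 (permutation p = 0.0747, adjusted 0.227; rho -0.429, permutation p = 0.0606). In triceps it was -0.0356 for Fbxo32 (permutation p = 0.883; rho -0.113, permutation p = 0.638) and -0.389 for Trim63 (permutation p = 0.0905, adjusted 0.227; rho -0.371, permutation p = 0.106). With the 2 most extreme values of PC1 left out, r in gastrocnemius was -0.401 for Fbxo32 (permutation p = 0.101) and -0.403 for Trim63 (permutation p = 0.0994). In triceps it was then -0.0698 for Fbxo32 (permutation p = 0.783) and -0.341 for Trim63 (permutation p = 0.164).

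Both ligases were thus lower where PC1 of gastrocnemius was higher, but no relation passed adjustment. Within 22 months r was -0.837 for Fbxo32 and -0.703 for Trim63, against -0.482 and -0.39 within 20 months, given as descriptions. PC1 of gastrocnemius itself moved with the TMM factor of the libraries, with an r of 0.86 over 20 libraries and 0.892 within 22 months. With the ligases scaled by library totals and PC1 kept as it was, r in gastrocnemius over 20 animals was -0.0742 for Fbxo32 and -0.0387 for Trim63, and within 22 months it was -0.563 and -0.145. In triceps r was then 0.109 for Fbxo32 and -0.126 for Trim63, and that of Trim63 within 20 months turned from -0.37 to 0.0652. The part of the scaling in the relation was not tested further.

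The genes whose pattern was most like each ligase were found by Pearson r of log2 CPM, centred within the 4 groups, over 40 libraries and 9752 other genes that averaged 5 CPM or more. The values share libraries and scaling and are given as descriptions. For Fbxo32 the highest r was 0.702, with ENSRNOG00000008614, and the lowest was -0.615, with ENSRNOG00000000098. For Trim63 the highest r was 0.768, with ENSRNOG00000002434, and the lowest was -0.737, with ENSRNOG00000010744. ENSRNOG00000002434 was, like Trim63, higher in gastrocnemius, at 62.6 ± 43.6 CPM and 78.1 ± 37.3 CPM at 20 and 22 months, than in triceps, at 22.3 ± 10.4 CPM and 21.0 ± 11.5 CPM (SD over 10 libraries). ENSRNOG00000008614 averaged between 24.9 and 26.4 CPM in the 4 groups. The gene with the lowest r to Fbxo32, ENSRNOG00000000098, was also higher in gastrocnemius, at 86.3 ± 25.8 CPM and 113 ± 41.2 CPM at 20 and 22 months. In triceps it was at 56.2 ± 11.7 CPM and 58.1 ± 11.7 CPM. ENSRNOG00000010744 averaged 77.1 and 75.5 CPM in gastrocnemius and 87.5 and 84.6 CPM in triceps. The ligases were not each other's closest match. Their r was 0.412, which 4.56% of genes reached or passed with Fbxo32 and 11.4% with Trim63, while the median r over genes was 0.0304 and 0.0572.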

How the data were processed

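Polyadenylated RNA, isolated by miRNeasy columns, went into TruSeq RNA libraries. The authors deposited whole-number read counts per Ensembl gene, without normalization, as 1 table for all 40 libraries. The submitters' processing notes name CASAVA 1.8, STAR 2.3.0e, HTSeq and the build Rnor_6.0, and give no counting settings. The study describes the rat reads as unstranded, so antisense transcripts over a gene are counted with it, and describes kallisto for its own values, which need not equal those given here. Columns were matched to libraries by the animal number and muscle letter of the titles.

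The analysis of the counts ran in edgeR 4.0.16 under R 4.3.3. Genes with at least 1 CPM in at least 10 libraries of a fit were kept, scaled by TMM, tested with the two-sided quasi-likelihood F-test and called at a Benjamini-Hochberg adjusted p under 0.01 over all genes. Age was compared over the 20 libraries of a muscle, muscle over the 20 libraries of an age, and the difference of age effects over all 40. The main fits held no term for the animal, although both muscles came from the same animals. Standard errors came from the F statistic. Correlations used log2 CPM with a prior count of 2 and two-sided permutation tests with 100000 resamples. Alternatives were DESeq2 1.42.0, limma 3.58.1 (voom), other scalings, no filter, a block, a joint fit and leaving out each animal. Thinning, and the CV with each library left out, were added after the data were examined. The fits were tested on simulated data.

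The 2 members and the lists were chosen with earlier results of these data known. Both members are always named, and the genes with the highest and lowest r to each are given by identifier. None of the 47357 genes in the annotation at hand carried an Ensembl identifier (0 matched), so the lists of other atrophy genes and cell type markers, fixed by symbol, were not analysed here, and the muscle labels were not checked against markers.

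Both muscles of an animal share its number in the labels, from which the pairing comes. Across genes, the median correlation of their departures from the group averages was 0.158, and 12 of 20 animals were over 0.1. Different animals with the same replicate number at both ages had medians of 0.0805 in gastrocnemius and 0.1 in triceps. The pairing therefore rests on the labels. Total counts ranged from 10983887 to 68580194 per library. The least different pair of libraries within a group had a chi-square of 11.4 per gene on average over genes. No library was therefore a copy of another of its group within sampling noise. Pairs from different groups were not examined.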

Additional observations from a re-analysis of the deposited data

Results flagged for a closer look

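In 20 sets of 10 libraries or animals, 3 held a value set apart from the others. The rule marks about 5% of sets by chance where values are normal. These sets share libraries and were not checked for normal spread, so no excess over chance can be read. Trim63 was at 665 CPM in gastrocnemius replicate 6 of 22 months, with the next library at 489 CPM, and the age change in gastrocnemius without that animal was -0.028 on the log2 scale. In triceps at 22 months, replicate 1 reached 419 CPM of Trim63 and the next library 320 CPM. Without that animal the difference between muscles at 22 months was 0.79 on the log2 scale (edgeR adjusted p = 3.23e-05). The deepest triceps library at 20 months, replicate 4, held 68580194 counts against 39910210 in the next, and had the lowest Fbxo32 of its group.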

How the results depend on the processing

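The log2 differences of both genes in 5 comparisons gave 78 values under 7 or 8 alternative settings each, and 160 values with an animal left out. Direction and side of the threshold held in 72 and 138 of these values. At 22 months the difference between muscles was called for both genes in all 8 alternatives and without any single animal. At 20 months Trim63 became called with DESeq2 (0.66), library totals (0.78) and the fit on all 40 libraries (0.66), and without single animals its difference ranged from 0.59 to 0.74. The age change of Fbxo32 in triceps turned from -0.032 to 0.012 with limma-voom, 0.010 with library totals and 0.0074 with the replicate number as a block, and ranged from -0.10 to 0.062 without single animals. That of Trim63 without single animals ranged from -0.028 to 0.14 in gastrocnemius and from -0.053 to 0.063 in triceps, and the difference of its age effects from -0.067 to 0.12. Values so close to 0 against their errors give no direction. The r of Fbxo32 with PC1 in triceps turned to 0.109 with library totals, and that of Fbxo32 with Trim63 in triceps at 20 months to -0.189 without 2 animals. The cause was not tested.

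With the animal as a block, the difference between muscles at 20 months was 0.60 for Fbxo32 (adjusted p = 0.022 by edgeR) and 0.60 for Trim63 (adjusted p = 0.0122 by edgeR). At 22 months it was 0.84 for Fbxo32 (adjusted p = 5.58e-05 by edgeR) and 0.69 for Trim63 (adjusted p = 0.000865 by edgeR). No call of either gene changed. The animals of the 2 ages with the same replicate number are different animals by their labels. Their median r was 0.0805 in gastrocnemius and 0.1 in triceps, over 0.1 in 5 of 10 pairs each. Whether they shared anything in handling was not tested. A block on that number called neither gene. Over all genes, the count called between muscles at 20 months was 467. It rose to 878 with DESeq2, to 694 of 12980 in the fit on all 40 libraries and to 525 without replicate 1. It fell to between 206 and 276 when any of replicates 3 (206), 4 (215), 5 (210), 8 (276) or 9 (238) was left out. Counting error of the 2 genes was at most 3.42% in any library. The effect of the number of animals was not tested.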
